A study of Mus musculus with 6 samples.

Results

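Snora24, Snora68, Snora17, SNORA71 and SNORA14 are 5 H/ACA box small nucleolar RNAs (snoRNAs) of the mouse whose fragments were often ligated to each other in MARIO, a method that joins RNA fragments held by the same protein through a short linker and reads each product as a pair, RNA1 before the linker and RNA2 behind it. They were chosen by their counts of read pairs in which both fragments carried the name of the same snoRNA, so these counts are given as a description without a test. The files list them as ENSMUSG00000092730_Snora24, ENSMUSG00000077563_Snora68, ENSMUSG00000077192_Snora17, ENSMUSG00000065362_SNORA71 and ENSMUSG00000065637_SNORA14. The 5 names were 5 of 27115 RNA names in the 6 libraries of the series, beside 625 other names of H/ACA snoRNAs. Self-ligated read pairs of the 5 RNAs numbered 6158 in the library ES-1, 556 in ES-2, 103 from ES cells crosslinked indirectly (ES indirect) and 159 from fibroblasts (MEF), out of 10479650 read pairs in all 6. The 2 brain libraries held 0 read pairs with the Ensembl identifiers of the 5 and were not analysed further. It was not examined whether they list these snoRNAs under another name.

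ES-1 and ES-2 were made from E14 cells, an embryonic stem cell line of the 129/Ola strain, after crosslinking of RNA to protein with ultraviolet light of 254 nm and RNase I digestion, to about 1000 nt in ES-2 and to about that size or longer in ES-1. ES indirect was made from the same line after crosslinking with formaldehyde and EGS, and its RNA was broken to about 1000 nt by sonication in place of RNase I. MEF was made from C57Bl/6 mouse embryonic fibroblasts after ultraviolet crosslinking and RNase I digestion to about 300 nt. A probe-based kit depleted ribosomal RNA in ES-2 and MEF and a nuclease specific for duplexes did so in the other 2, so ES-1 and ES-2 differed in depletion and may have differed in fragment size. ES indirect and MEF are 1 library each, so a difference that involves them compares libraries. The paper describes ES-1 and ES-2 as independent assays that differed in minor technical points, while nothing in the labels says that they came from separate cultures. Tests on their read pairs likewise measure a difference between those libraries.

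The 4 libraries held between 474526 (MEF) and 3302146 (ES indirect) read pairs, of which 48.3% to 81% had a ribosomal end. ES-1 and ES-2 were read on the same 2 flow cells and ES indirect and MEF on 2 others, so cell type, crosslinking and flow cell cannot be told apart between these couples of libraries. The 8 fibroblast genes checked had 671 fragment ends in MEF against 44 for the 8 stem cell genes checked, while in each ES library the stem cell genes had more ends, such as 1773 against 1240 in ES-1 and 6599 against 1060 in ES indirect. These sums lean on single genes: Fn1 held 1135 of the 1240 and 1001 of the 1060 fibroblast ends and took a smaller part of all ends in MEF (91 ends) than in ES-1, against its label, and Esrrb held 4404 of the 6599. S100a4, a fibroblast gene, was at 0 in ES-2, and the other 15 genes were above 0 in each library. Self-ligated read pairs often repeated the coordinates of another one, even after the authors' removal of duplicates by coordinates and random barcode, at 57.7% (SNORA14) to 71% (Snora68 and SNORA71) of the ES-1 and 8.33% (SNORA71) to 26% (SNORA14) of the ES-2 read pairs. Confidence intervals below are 95% Wilson intervals that cover counting error alone.

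H/ACA snoRNAs fold into a pair of hairpins that are joined by a single-stranded hinge with the H box and followed by a single-stranded tail with the ACA box. An internal loop in one or both hairpins base-pairs with a target RNA, and the protein dyskerin, held on the snoRNA with Nop10, Nhp2 and Gar1, converts a uridine of the target to pseudouridine. Most vertebrate members are cut out of introns of a host gene by exonucleases that stop at the bound proteins, so the ends of the mature RNA are set by the protein complex. Snora24 and SNORA71 are known as guides for the 18S rRNA of the small ribosomal subunit.

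The sequences of the 5 RNAs are shown because each cut site below is a position in them. They were read from the mm9 (NCBIM37) genome, 5′ to 3′, and capitals mark the H box (letters ANANNA) and the ACA box.
Snora24, chr3:123210855-123210984, minus strand: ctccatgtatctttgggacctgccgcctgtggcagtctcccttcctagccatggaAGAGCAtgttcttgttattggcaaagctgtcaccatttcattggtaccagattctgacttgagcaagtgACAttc
Snora68, chr8:73419658-73419788, minus strand: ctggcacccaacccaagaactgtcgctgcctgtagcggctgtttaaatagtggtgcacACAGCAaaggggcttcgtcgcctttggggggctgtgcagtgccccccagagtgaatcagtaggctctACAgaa
Snora17, chr2:26494709-26494841, minus strand: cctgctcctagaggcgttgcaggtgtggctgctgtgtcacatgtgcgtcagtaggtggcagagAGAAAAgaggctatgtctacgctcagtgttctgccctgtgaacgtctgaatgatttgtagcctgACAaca
SNORA71, chr2:158182157-158182290, minus strand: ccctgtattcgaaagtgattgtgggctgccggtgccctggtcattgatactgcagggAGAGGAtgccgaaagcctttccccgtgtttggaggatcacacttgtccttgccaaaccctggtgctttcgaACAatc
SNORA14, chr8:129468747-129468880, minus strand: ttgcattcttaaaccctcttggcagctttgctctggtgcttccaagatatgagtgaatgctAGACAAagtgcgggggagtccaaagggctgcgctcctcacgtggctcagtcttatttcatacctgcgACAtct
The ACA box stood 3 nt before the end of the sequence in each, and position 1 is the annotated 5′ end. The annotated gene was 1 nt shorter at its 3′ end than the sequence shown for Snora17 and 3 nt shorter for SNORA71, and the sequences above run to 3 nt after the ACA box. In Snora17 there were 3 candidates for the H box and in SNORA14 there were 2, and the one nearest the middle of the annotated gene was taken. It was also the candidate nearest the middle of the unpaired hinge of the fold. In Snora17 the candidates at 62 and 64 both lay in that hinge, so the fold alone did not single one out. The H box started at position 56 in Snora24, 59 in Snora68, 64 in Snora17, 58 in SNORA71 and 62 in SNORA14. SNORA14 lay in an intron of Tomm20, which encodes a receptor of the outer mitochondrial membrane. SNORA71 lay in an intron of the noncoding gene 9430008C03Rik, and Snora17 lay in the noncoding gene Snhg7, where an exon of 1 of 2 transcripts overlapped it. No annotated gene on the same strand overlapped Snora24, which the annotation lists as AC124005.1.

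Self-ligation took a different part of the read pairs of each snoRNA. In ES-1, 2138 of 26042 read pairs with Snora24 were self-ligated (8.21%, interval 7.88% to 8.55%), and in ES-2 165 of 3812 (4.33%, 3.73% to 5.02%). For Snora68 the counts were 1475 of 14034 in ES-1 (10.5%) and 151 of 2559 in ES-2 (5.9%), and for Snora17 they were 1117 of 14681 (7.61%) and 154 of 2212 (6.96%). SNORA71 had the widest gap between the ES libraries, with 1052 of 5919 in ES-1 (17.8%, 16.8% to 18.8%) and 36 of 837 in ES-2 (4.3%, 3.12% to 5.9%). Its 1052 read pairs had 305 sets of coordinates and its 36 had 33, so repeats weigh more in the ES-1 share. SNORA14 had the lowest share of the 5 in ES-1, 376 of 8123 (4.63%), and 50 of 1129 in ES-2 (4.43%). As a mean of the 2 ES libraries the self-ligated share was 6.27% ± 2.74 (SD, n = 2) for Snora24, 8.2% ± 3.25 for Snora68, 7.29% ± 0.46 for Snora17, 11.1% ± 9.55 for SNORA71 and 4.53% ± 0.141 for SNORA14. The order of the 5 by share thus did not hold from ES-1 to ES-2, where SNORA71 fell from the highest to the lowest share. Self-ligation of all RNAs other than rRNA fell as well, from 4.36% of the read pairs held by ES-1, ribosomal ones included, to 1.47% of those of ES-2. A lower share in ES-2, slight for Snora17 and SNORA14, was therefore not particular to these snoRNAs, though these shares have different denominators.

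ES indirect and MEF held few of these read pairs. ES indirect had 35 self-ligated read pairs of Snora24 among 200 (17.5%), 14 of 158 for Snora68, 16 of 172 for Snora17, 19 of 76 for SNORA71 (25%) and 19 of 112 for SNORA14 (17%). The 5 RNAs made up 718 read pairs of this library, against 68799 in ES-1, which was of similar depth. Self-ligation of all RNAs other than rRNA made up 31% of the read pairs of ES indirect, also above its part in ES-1, and 1.33% of those of MEF. High shares in ES indirect were thus not particular to the 5. Whether their shares differed between libraries beyond this shift was not tested. MEF had 119 of 1468 for Snora24 (8.11%), 15 of 868 for Snora68 (1.73%), 8 of 288 for Snora17, 2 of 227 for SNORA71 and 15 of 599 for SNORA14. Of these, 50 of Snora24, 7 of Snora68, 8 of Snora17, 2 of SNORA71 and 10 of SNORA14 came from 1 flow cell on which RNA1 lay inside RNA2 on the same strand, and they may not be ligations. Without that flow cell the self-ligated share in MEF was 5.34% for Snora24, 1.14% for Snora68, 0 of 261 for Snora17 (up to 1.15%), 0 of 219 for SNORA71 (up to 1.37%) and 1.04% for SNORA14. Of the 69 Snora24 read pairs left, 55 were reversed with shared bases, and whether they are ligations was not tested.

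**Figure D1:**
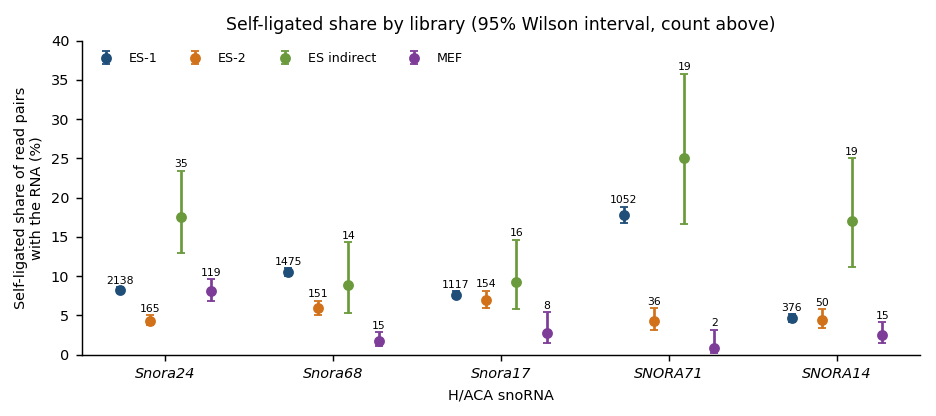
Self-ligated read pairs as a percentage of the read pairs that hold each snoRNA (vertical axis), for the 5 snoRNAs (horizontal axis) and 4 libraries. Points are shares, bars are 95% Wilson intervals and the numbers above are counts of self-ligated read pairs. SNORA71 in ES-1 sits at 17.8% and in ES-2 at 4.3%, while Snora17 sits at 7.61% and 6.96%.

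Among the H/ACA snoRNAs with at least 20 self-ligated read pairs in ES-1 and ES-2 together (102 names, called ES merged below), Snora24 ranked 5th by that count, Snora68 10th, Snora17 15th, SNORA71 17th and SNORA14 33rd. SNORA71 had the second highest share, 16.1%, below the SNORA74 copy ENSMUSG00000077611 with 28.3%, a place that rests on ES-1 (17.8%) and not on ES-2 (4.3%). The nearest names below SNORA71 were SNORA53 with 12.4%, SNORA32 with 10.9% and SNORA70 with 10.8%, and the nearest to SNORA14 (4.6%) were SNORA25 (4.57%), SNORA66 (4.55%) and SNORA58 (4.73%). The 96 other H/ACA snoRNAs had a median share of 3.45%, from 0.481% to 28.3%, and 30 of them lay above SNORA14.

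The order of the fragments was not used to choose the RNAs. An order was called reversed when RNA2 began upstream of RNA1 on the snoRNA, by 1 nt or more. In ES merged, 6177 of 6699 self-ligated read pairs on the gene strand (92.2%, 91.5% to 92.8%) were in reversed order. By snoRNA and library, the reversed share was 97.2% in ES-1 and 96.2% in ES-2 for Snora24, 90.2% and 96.6% for Snora68, and 92.1% and 95.5% for Snora17. SNORA71 had 98.3% in ES-1 (1034 of 1052) and 85.7% in ES-2 (30 of 35). SNORA14 stood below the other 4 in both ES libraries, with 56.8% in ES-1 (213 of 375) and 48% in ES-2 (24 of 50).

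SNORA71 was reversed 12.6 percentage points more often in ES-1 (Fisher's exact test on read pairs, two-sided, p = 5.72e-04, adjusted p = 0.002 over 7 tests), and Snora68 was reversed 6.38 points less often in ES-1 (Fisher's exact test, p = 0.00983, adjusted p = 0.0229). Both ES libraries were read on the same 2 flow cells. On the first, SNORA71 was reversed in 96.4% of ES-1 and 76.2% of ES-2 read pairs and on the second in 99.3% and 100%, so the difference did not hold on the second. Snora68 was reversed in 85% and 94% on the first and in 93% and 100% on the second, lower in ES-1 on both. The Snora68 difference no longer passed when fragments under 20 nt were left out (Fisher's exact test, adjusted p = 0.112) or when RNA2 had to start at least 10 nt upstream (adjusted p = 0.0803). For Snora24, Snora17 and SNORA14 the tests did not pass (Fisher's exact test, adjusted p = 0.455, 0.27 and 0.337). In ES indirect the reversed share of Snora24 was 60% (21 of 35) against 97.2% in ES-1 (Fisher's exact test, adjusted p = 7.39e-12), with 46.7% and 70% on its 2 flow cells. The other 4 snoRNAs had under 20 read pairs in ES indirect and were not tested: 3 of 14 read pairs were reversed for Snora68, 3 of 16 for Snora17, 12 of 19 for SNORA71 and 10 of 19 for SNORA14.

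**Figure D2:**
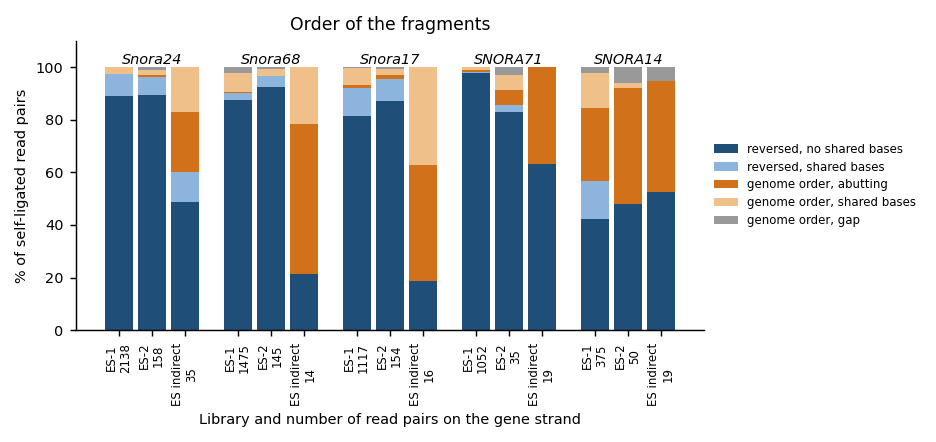
Order of the fragments in self-ligated read pairs on the gene strand, as a percentage (vertical axis) for each snoRNA in ES-1, ES-2 and ES indirect; numbers under the bars are read pairs. Dark and light blue are reversed pairs without and with shared bases, and orange to grey are pairs in genome order; reversed pairs fill 85.7% to 98.3% of the ES-1 and ES-2 bars of the first 4 snoRNAs, against 56.8% and 48% for SNORA14.

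The ligated 3′ ends of RNA1 gathered behind the ACA box. An end was assigned to a box when it lay within 5 nt of it. Ends were used as deposited, with 1 base of the linker. A fragment that stops at the mature 3′ end, 3 nt past the box, thus has its deposited end 4 nt past the box. A window of 3 nt leaves such ends out and keeps 5.52% of the ends. In ES merged, 5388 of 6699 RNA1 3′ ends (80.4%, 79.5% to 81.4%) lay at the ACA box and 31 (0.463%) at the H box. For Snora24 the share at the ACA box was 84% in ES-1 and 77.8% in ES-2, for Snora68 76.4% and 82.8%, and for Snora17 83.7% and 83.1%. SNORA71 had 91.2% in ES-1 against 80% in ES-2, and SNORA14 had 41.6% and 34%. In ES indirect, 16 of 35 Snora24 ends lay at a box (45.7%), against 84.8% in ES-1 (Fisher's exact test, adjusted p = 5.05e-07). The ends at the 2 boxes together did not differ between ES-1 and ES-2 past the threshold for any of the 5 (Fisher's exact test, adjusted p from 0.0586 for Snora24 and SNORA71 to 1 for Snora17).

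Most of these ends lay at a single position. The deposited RNA1 fragments ended with 1 base of the linker, a C, in 73.2% (SNORA14) to 93.1% (SNORA71) of the read pairs of ES merged. With this base counted in, the deposited end lay 1 nt past the base 3 nt after the ACA box in 1597 of 2296 read pairs of Snora24 (69.6%), 1151 of 1620 of Snora68 (71%), 885 of 1271 of Snora17 (69.6%) and 870 of 1087 of SNORA71 (80%). SNORA14 had 90 of 425 there (21.2%). Without the linker base, the most used end of SNORA71 was 3 nt beyond the annotated gene. For Snora17 the genome also has a C at that deposited end, position 134, so the linker base cannot be told from the RNA there and the end is known to within 1 nt.

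The 5′ ends of RNA2 gathered at the other end of the snoRNA and at a site inside the 5′ hairpin. Within 5 nt of position 1 lay 58.3% of the RNA2 5′ ends of Snora24 in ES-1 against 47.5% in ES-2, 77.4% and 73.1% of those of Snora68, and 48.3% and 40.9% of those of Snora17. SNORA71 had 20.6% and 14.3% there, and SNORA14 34.4% and 30%. Positions 11 to 16, on the 5′ side of the 5′ hairpin, held 69.4% of the RNA2 5′ ends of SNORA71 in ES-1 against 48.6% in ES-2, 36.1% and 44.3% for Snora24, and 31.2% and 38.3% for Snora17. Snora68 had 10.3% and 15.9% there and SNORA14 7.47% and 8%. The Snora24 share at the start was 10.8 points higher in ES-1 than in ES-2 (Fisher's exact test, adjusted p = 0.0335; 55.9% against 51.9% on the first flow cell and 59.6% against 38% on the second), and ES indirect had 37.1% (adjusted p = 0.035 against ES-1). Both tests counted every read pair and were not repeated with identical coordinates counted once. SNORA71 was the one of the 5 with more RNA2 ends at positions 11 to 16 than at its start in both ES libraries. Of the 6 positions from 11 to 16, the predicted fold left 4 unpaired in Snora24, 6 in Snora68, 3 in Snora17, 3 in SNORA71 and 6 in SNORA14.

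The hinge was rarely a ligated end in self-ligated read pairs. At the H box lay 17 of 2296 RNA1 3′ ends of Snora24 in ES merged (0.74%), 0 of 1620 of Snora68 (a count that allows up to 0.185%), 4 of 1271 of Snora17, 1 of 1087 of SNORA71 and 9 of 425 of SNORA14 (2.12%). RNA2 5′ ends at the H box numbered 40 of 6699 over the 5 snoRNAs (0.597%), of which Snora68 had 36 (2.22% of its own ends), and 25 of these were a junction from 7 to 69 in ES-1 with 1 set of coordinates, at the edge of the window. At the ACA box lay 0 of 6699, which allows up to 0.0448%. In ES indirect, 2 of 35 RNA2 5′ ends of Snora24 lay at the H box against 0 of 2138 in ES-1 (Fisher's exact test, adjusted p = 0.00176). That test was not repeated with identical coordinates counted once.

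**Figure D3:**
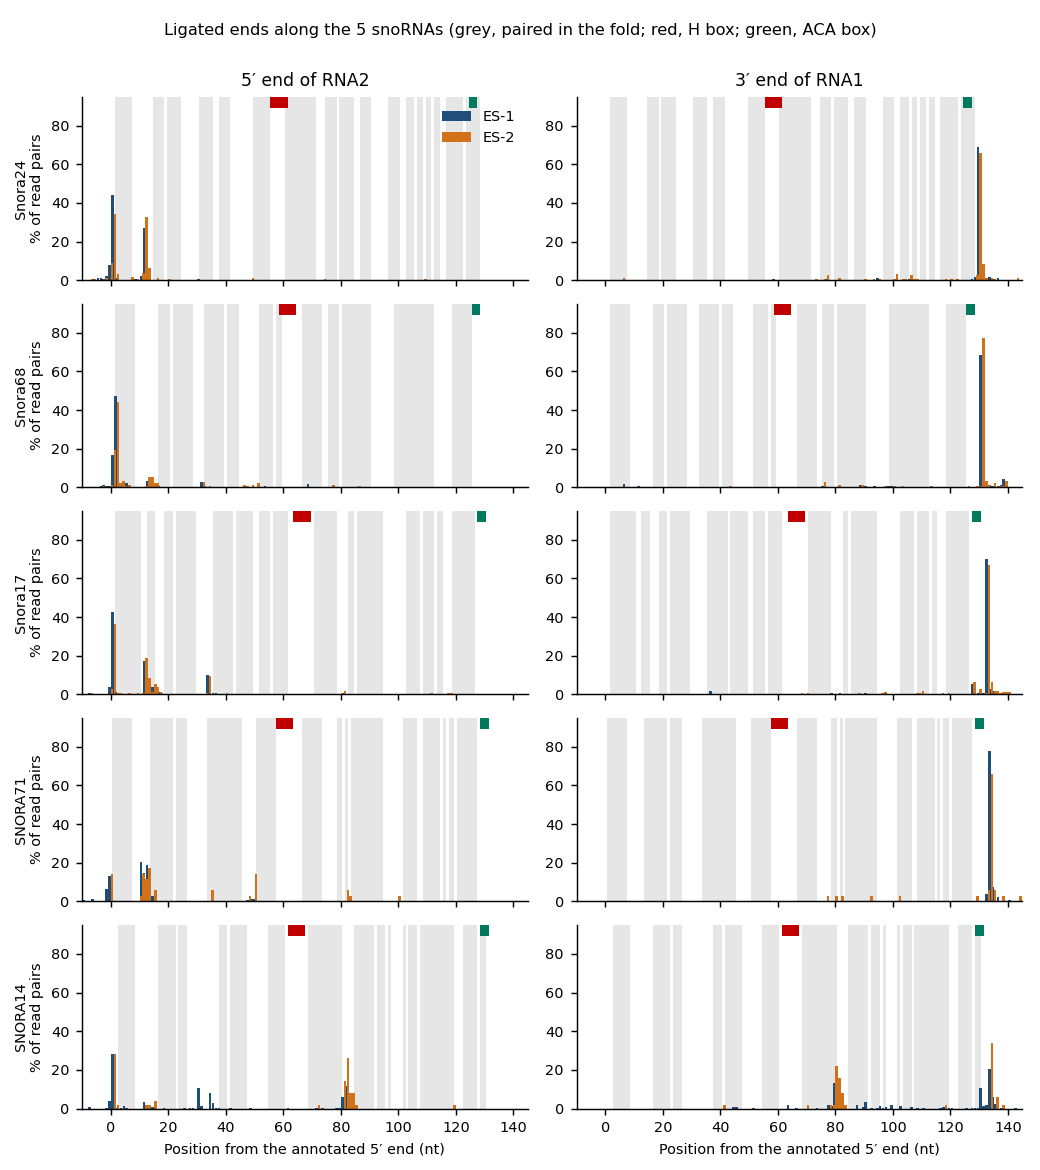
Percentage of self-ligated read pairs on the gene strand (vertical axis) whose RNA2 5′ end (left) or RNA1 3′ end (right, without the linker base) lay at each position from the annotated 5′ end (horizontal axis, nt), with ES-1 and ES-2 drawn side by side. Grey bands are paired bases of the predicted fold, and red and green marks are the H and ACA boxes. RNA1 ends stand behind the green mark in the upper 4 rows, and SNORA14 has a second group near positions 80 to 84.

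Single junctions made up much of each count. The pair of ends most used by Snora24 in ES-1 joined position 130 to position 1, in 756 read pairs with 226 different coordinates of both fragments, and the next joined 130 to 12 in 410 read pairs. In ES-2 the same junctions led, with 38 and 40 read pairs. Snora68 joined 131 to 2 in 574 ES-1 and 59 ES-2 read pairs. Snora17 joined 133 to 1 in 421 and 46 read pairs and 133 to 12 in 151 and 22. These junctions tie the mature 3′ end to the mature 5′ end or to the internal site, in one molecule or between copies, which these junctions alone cannot tell apart. SNORA71 spread over several junctions of its 3′ end, with 167 read pairs from 134 to 11, 163 to 13, 125 to 0 and 117 to 12 in ES-1, and with 6 read pairs from 134 to 13, 5 to 50, 4 to 0 and 3 to 11 in ES-2. A junction of Snora17 from 128 to 34, in the loop of the 5′ hairpin, had 50 ES-1 read pairs from 2 sets of coordinates and 8 ES-2 read pairs from 1 set. A junction of SNORA14 from 131 to 31 had 38 read pairs in ES-1 from 1 set of coordinates.

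Ends of both fragments at the 2 termini occurred together in 51.3% of the read pairs of Snora24 in ES-1 and 40.5% in ES-2, a difference of 10.8 points (Fisher's exact test, adjusted p = 0.0243; 48.8% against 45.4% on the first flow cell and 52.6% against 30% on the second). In ES indirect it was 17.1% (Fisher's exact test, adjusted p = 1.77e-04 against ES-1). Neither test was repeated with identical coordinates counted once. Snora68 had 64.7% and 64.1%, Snora17 44% and 37%, SNORA71 19.9% and 14.3%, and SNORA14 24.8% and 22%, and these differences did not pass (Fisher's exact test, adjusted p from 0.207 to 0.928).

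SNORA14 also had ends inside its 3′ hairpin. In ES merged, 29.4% of its read pairs were in genome order with RNA2 starting within 2 nt of the end of RNA1, against 0.0436% for Snora24, 0.247% for Snora68, 1.18% for Snora17 and 0.736% for SNORA71. The leading such junction, from 81 to 82, had 21 read pairs in ES-1, 7 in ES-2 and lay 1 nt from the leading SNORA14 junction of ES indirect, 82 to 83 with 6 read pairs. In ES indirect such read pairs were not particular to SNORA14: they made up 42.1% of its 19 read pairs, 57.1% of 14 for Snora68, 43.8% of 16 for Snora17, 36.8% of 19 for SNORA71 and 22.9% of 35 for Snora24. With the trailing C taken off, RNA1 ended at 80 or 81 in 14.4% and 16% of the SNORA14 read pairs of ES merged, and as deposited it ended at 81 in 12.9% and at 82 in 16%. The genome has a C at both 81 and 82, so the base taken off may be one of the RNA. In the predicted fold position 80 was paired and bordered a run of unpaired bases in the 3′ hairpin. Positions 81 and 82 lay in that run.

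Some read pairs of reversed order held the same bases in RNA1 and RNA2. With at least 3 nt shared, they were 8.1% of the read pairs of Snora24 in ES merged, 2.72% for Snora68, 10.4% for Snora17, 0.552% for SNORA71 and 12.9% for SNORA14. The SNORA14 share was 14.7% in ES-1 and 0 of 50 in ES-2, which allows up to 6%.

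RNase I cuts single-stranded RNA, so the ends were set beside the fold of each sequence. Leaving out the ends at the termini, 86.8% (84.8% to 88.6%) of the ends of Snora24 in ES merged lay at unpaired positions, 53.9% (49.9% to 57.8%) of those of Snora68, 69.3% of those of Snora17, 75.9% of those of SNORA71 and 73.9% of those of SNORA14. The unpaired part of the same stretches was 40.8%, 38.8%, 36.6%, 39.5% and 41.9%. Each of the 5 shares lay above that of the positions, in each of ES-1 and ES-2. For Snora24 it was 87.7% in ES-1 and 78% in ES-2, for Snora68 52.4% and 69.1%, for Snora17 69.2% and 70%, for SNORA71 76% and 72.2%, and for SNORA14 74.2% and 71.9%. In ES indirect, whose RNA was sonicated, the share was 52.5% for Snora24 (40 ends), 79.2% for Snora68 (24 ends), 69.2% for Snora17 (26 ends), 94.4% for SNORA71 (18 ends) and 86.4% for SNORA14 (22 ends), and this library was not tested for it. The positions used again and again are few, so these shares rest on a small number of cut sites. For Snora68 the share over the ends within the sequence rose from 59.7% to 89.3% with the centroid structure in place of that of minimum free energy.

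MEF stood apart in 2 ways. On 1 of its 2 flow cells, 77 of 77 self-ligated read pairs of the 5 snoRNAs had both fragments on the same strand of the file, with RNA1 lying inside RNA2 and 10 nt shorter, and such read pairs numbered 0 in the other 3 libraries. They had no order along the RNA and were left out of the measures of order and ends.

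On the other flow cell, 63 of 69 Snora24 read pairs of MEF were in reversed order (91.3%, against 96.2% in ES-2), and 79.7% were reversed with shared bases. The difference in order did not pass (Fisher's exact test, adjusted p = 0.27), but did when RNA2 had to start at least 10 nt upstream (adjusted p = 1.25e-07). Whether MEF and ES-2 differed in order thus depends on the rule for a reversed pair. RNA1 3′ ends lay at a box in 10.1% of the MEF read pairs of Snora24 and in 77.8% of those of ES-2 (Fisher's exact test, adjusted p = 1.11e-21), and 1 of 69 lay at the ACA box. The leading junctions in MEF joined positions 72, 71, 77 and 78, in the 3′ hairpin, to position 1, with 10, 8, 6 and 4 read pairs. In these 69 read pairs the median length was 42 nt for RNA1 and 71 nt for RNA2. An RNA2 of that length from position 1 stops near those RNA1 ends, so RNA1 may lie inside RNA2 in many of them. Whether these read pairs are ligations was not tested. RNA2 started within 5 nt of position 1 in 79.7% of the MEF read pairs against 47.5% in ES-2 (Fisher's exact test, adjusted p = 3.54e-05). Snora68 kept its leading ES junction in MEF, 131 to 2, in 4 of 8 read pairs. The part of RNase I digestion, cell type and flow cell in the MEF difference was not tested.

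The ends of the 5 snoRNAs in read pairs with other RNAs are given beside those of self-ligation without a test. When the partner was ribosomal and the snoRNA was RNA1, its 3′ end lay at the ACA box in 56.7% of read pairs for Snora24 in ES-1 against 80.2% in ES-2, 52.1% and 67.1% for Snora68, 61.6% and 80% for Snora17, 70% and 88.5% for SNORA71, and 49.4% and 75.8% for SNORA14. At the H box lay 5.5% of these ends for Snora24 in ES-1, against 0.795% of its self-ligated ends, and 5.17% for Snora68 (274 read pairs), against 0 of 1475, while in ES-2 the ribosomal shares were 1% and 2.6%. As RNA2 with a ribosomal partner, SNORA71 started at positions 11 to 16 in 64.4% of the ES-1 and 55.6% of the ES-2 read pairs, and Snora24 in 28.7% and 29%. In MEF, Snora24 ended at the ACA box in 7.03% of the ribosomal read pairs and 8.5% of those with other RNAs, while Snora68 did so in 50.6% and 34.1%.

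Beside the other H/ACA snoRNAs with at least 20 self-ligated read pairs, the 5 are described without a test. Snora24, Snora68, Snora17 and SNORA71 stood above the median of the others in reversed order and in RNA1 ends at the ACA box, and SNORA14 below both. The median reversed share over 96 others was 81.2% (11% to 100%), and the median share of RNA1 ends at the ACA box over the 89 with an ACA box found was 56.9% (0% to 93.9%). RNA2 starts had a median of 36.6% at the 5′ end and 7.67% at positions 11 to 16, where 2 other snoRNAs lay above the 68.7% of SNORA71. The window from 11 to 16 covers positions that lead among the RNA2 ends of several of the 5. The others were thus not compared with them there on equal terms. At the H box the median of 93 others was 1.04% and the highest value 41.2%.

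**Figure D4:**
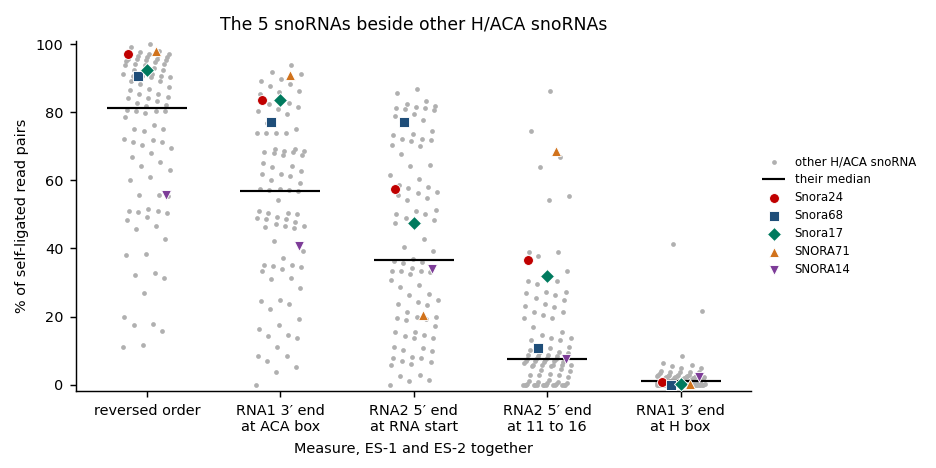
Shares of self-ligated read pairs of ES-1 and ES-2 together (vertical axis, percent) for 5 measures (horizontal axis). Grey points are other H/ACA snoRNAs, black bars their medians (81.2%, 56.9%, 36.6%, 7.67% and 1.04%) and coloured symbols the 5 snoRNAs; SNORA71 stands at 68.7% for positions 11 to 16 and SNORA14 below the median in reversed order. Positions 11 to 16 include leading RNA2 ends of several of the 5.

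Ribosomal RNA was the most frequent partner in the ES libraries. Read pairs with a ribosomal partner made up 57.3% of those with Snora24 in ES-1 against 54.9% in ES-2, 49.5% and 50.6% for Snora68, 55.4% and 49.2% for Snora17, 47.6% and 52.6% for SNORA71, and 60.4% and 57.2% for SNORA14. In MEF they were 24.5% (SNORA14) to 38.2% (Snora17). Most of these partners carry the repeat names LSU-rRNA_Hsa and SSU-rRNA_Hsa, of the large and the small subunit. In ES indirect the precursor Rn45s made up 26.3% (Snora68) to 54.3% (SNORA14) of the ribosomal partners, and it is left out of the shares that follow, which are of both subunits together. The small subunit took 37.2% of these for Snora24 in ES-1 (36.4% to 38%) and 33% of those of ES-2 (31% to 35.1%), beside 33.7% and 27.8% for other H/ACA snoRNAs together. Snora68 had 30.3% and 31.7%, Snora17 28.8% and 23.3%, SNORA71 32.5% and 26.5%, and SNORA14 30.3% and 24.5%. Over 162 other H/ACA snoRNAs the share ran from 19.2% to 46.8% in ES merged with a median of 32.4%, and the 5 lay between 28.2% (Snora17) and 36.7% (Snora24). In ES indirect it was 10.3% to 23.8% on 21 to 45 read pairs and in MEF 12.4% to 15.9%.

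Most small-subunit fragments lay in one copy of the rRNA, chr17:39983293-39985137 (mm9, plus strand, 1845 nt), which was cut into bins of 100 nt after the data had been seen. In each bin the share of a snoRNA's read pairs was compared with that of the other H/ACA snoRNAs (Fisher's exact test, two-sided, adjusted over 95 tests a library). Of the 95, ES-1 called 16 higher (16.8%) and 17 lower (17.9%), while ES-2 called 3 higher (3.16%) and 4 lower (4.21%). With identical coordinates counted once, ES-1 called 4 higher (4.21%) and 3 lower (3.16%), while ES-2 called 1 higher (1.05%) and 1 lower (1.05%). Snora24 was called higher in both libraries in the bin from 601 to 700. This bin held 387 of 4086 Snora24 read pairs in ES-1 (9.47%, 8.61% to 10.4%) against 3.04% for other H/ACA snoRNAs, and 110 of 432 in ES-2 (25.5%, 21.6% to 29.8%) against 4.97%. The difference passed in both libraries (Fisher's exact test, adjusted p = 4.13e-78 and 2.52e-42) and with identical coordinates counted once (adjusted p = 4.40e-44 and 2.21e-33). Snora24 ranked 4th of 141 H/ACA snoRNAs for this bin in ES-1 and 3rd of 75 in ES-2. In ES-1 the bins from 701 to 800 (7.02% against 4.66%, Fisher's exact test, adjusted p = 7.97e-10) and from 801 to 900 (10.5% against 6.05%, adjusted p = 1.62e-25) were also higher for Snora24. With identical coordinates counted once the latter passed (Fisher's exact test, adjusted p = 2.97e-09) and the former did not (adjusted p = 0.0872). The leading window of 20 nt for rRNA 5′ ends behind Snora24 in ES-1 was 821 to 840, with 237 of 3694 (6.42% against 3.56%), and the window from 601 to 620 ranked 4th. The bin from 601 to 700 is shown because it was called in both libraries, and capitals mark positions 601 to 620, where 77 of 390 rRNA fragments behind Snora24 in ES-2 had their 5′ end (19.7%, from 64 sets of coordinates, against 2.73% for others) and 173 of 3694 in ES-1 (4.68% against 1.32%).
Small-subunit rRNA, chr17:39983893-39983992, plus strand: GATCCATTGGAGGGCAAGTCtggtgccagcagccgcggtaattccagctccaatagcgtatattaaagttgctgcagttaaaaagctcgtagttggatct
Base pairing of this stretch with Snora24 was not examined.

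Snora17 also lay higher in the bin from 601 to 700, with 6.73% in ES-1 against 3.04% and 10.8% in ES-2 (17 of 157) against 4.97% (Fisher's exact test, adjusted p = 2.92e-13 and 0.0356), and the ES-2 difference no longer passed with identical coordinates counted once (adjusted p = 0.0727). SNORA14 lay higher from 901 to 1000 in ES-1, with 186 of 1177 (15.8%) against 5.65% (Fisher's exact test, adjusted p = 4.49e-34), and had 9.26% against 5.47% there in ES-2, which was not called. It also lay higher from 1001 to 1100 on 23 of 1177 ES-1 and 6 of 108 ES-2 read pairs (Fisher's exact test, adjusted p = 0.0198 and 0.0163), which passed in neither with identical coordinates counted once (adjusted p = 0.179 and 0.0727). Snora24 lay lower from 1401 to 1500, with 7.46% in ES-1 against 10.2% and 10.4% in ES-2 against 19.3% (Fisher's exact test, adjusted p = 4.56e-08 and 5.51e-05). No bin was called in the same direction in both libraries for Snora68 or SNORA71. 

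**Figure D5:**
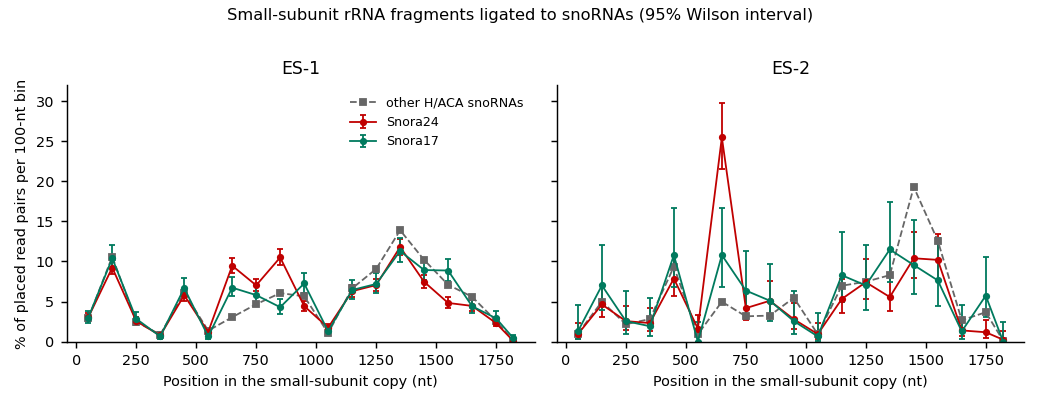
Share of small-subunit rRNA fragments (vertical axis, percent of the placed read pairs of each snoRNA or group) per 100-nt bin along the rRNA copy (horizontal axis, nt from its 5′ end) in ES-1 and ES-2, for Snora24, Snora17 and other H/ACA snoRNAs together. Bars are 95% Wilson intervals; Snora24 rises to 9.47% and 25.5% in the bin from 601 to 700.

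Partners other than rRNA were tested against the count predicted from the read pairs of both RNAs (one-sided Fisher's exact test, adjusted over each observed pair of RNAs, adjusted p under 0.05 and at least 3 read pairs). The prediction multiplied the fragment counts of both RNAs and divided by the number of read pairs. Fragments joined at random would give a lower count than this, so a count below the prediction does not show a lack of contacts. In ES merged, 515 of 6220 partners of the 5 snoRNAs were called (8.28%), beside 6.34% of the 227775 pairs of RNAs in the table. Among pairs with at least 3 read pairs, 28.8% of those of the 5 snoRNAs were called in ES merged beside 39.3% in the table, 34% in ES-1 beside 47.3%, 18.9% in ES-2 beside 22.1%, 92.9% in ES indirect (13 of 14) beside 74.6%, and 16.5% in MEF beside 41.4%. ES-1 called 533 partners (10.8%, beside 10.5%), ES-2 called 46 (2.17%, beside 1.27%), ES indirect 13 (6.91%, beside 6.81%) and MEF 15 (1.41%, beside 2.88%). With identical coordinates counted once, 57 partners were called (0.916%, beside 0.895%). A minimum of 5 read pairs called 234 (3.76%, beside 2.56%), an adjusted p under 0.01 called 346 (5.56%, beside 4.85%), fragments whose sequence matched the stated position 376 (8.88%, beside 8.26%) and fragments of at least 20 nt 454 (9.59%, beside 8.04%). By snoRNA, ES merged called 143 for Snora24, 114 for Snora68, 113 for Snora17, 62 for SNORA71 and 84 for SNORA14.

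Of the 10 couples among the 5 snoRNAs, Snora24 with Snora17 was called, with 114 read pairs in ES merged (95 and 19) against 89.9 predicted (Fisher's exact test, adjusted p = 0.0311) but not in each ES library on its own. The other 9 were not called, and their counts below the prediction cannot be read as a depletion. By class, other snoRNAs made up 43.3% (SNORA14) to 53.4% (Snora68) of the read pairs between different RNAs in ES merged and mRNAs 30.5% (SNORA71) to 38.5% (SNORA14). The order of the classes rested on ES-1, where snoRNAs led for each of the 5 (46.2% to 57.6%, with mRNAs at 27.6% to 37.7%), while in ES-2 mRNAs led for each (38.6% to 47.5%, with snoRNAs at 23.6% to 32%). Each ES library on its own called SNORA1 and SNORA72 with Snora24. SNORA1 had 219 read pairs in ES merged (199 and 20) against 139 predicted (Fisher's exact test, adjusted p = 8.25e-09), and SNORA72 had 181 (156 and 25) against 63.5 (adjusted p = 1.02e-31). Snora17 was called in both with a SNORA74 copy (135 read pairs against 51.1 predicted), a SNORA17 copy on chromosome 16 (90 against 9.54) and a SNORA43 copy (85 against 13.5). Snora68 was called with a SNORA68 copy on chromosome 13 (69 against 2.3) and SNORA71 with another copy on chromosome 2 (19 against 5.2).

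Copies of the same snoRNA share sequence with the member. Of the partner fragments of the SNORA68 copy, 30 of 69 read the same in Snora68, and so did 33 of 90 of the SNORA17 copy and 38 of 85 of the SNORA43 copy in Snora17, and 5 of 19 of the SNORA71 copy. The files hold 296 further loci under the name of SNORA17, 12 of SNORA71, 5 of Snora24, 3 of Snora68 and 0 of SNORA14. Counts between a member and its copies are therefore uncertain, and it was not tested how many of them were self-ligation.

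Among the mRNA partners named here, Fam171a1 and Cntn5 were called in each ES library, and their fragments also read as snoRNA. Of the 4 partners of Snora17 called in both, the one with fewest read pairs was not looked at. Fam171a1 had 43 read pairs with Snora24 (36 and 7, with 2 in ES indirect and 0 in MEF) against 2.1 predicted (Fisher's exact test, adjusted p = 6.49e-41). All 43 lay in an intron at chr2:3115173-3115190, and 43 of 43 fragments had a sequence that is also in Snora24. Cntn5 had 24 read pairs with Snora68 (21 and 3) against 2.08 predicted (Fisher's exact test, adjusted p = 6.70e-16), antisense to the gene, of which 16 fragments read the same in Snora68 and 6 in Snora64. Another partner of Snora24 called in both, a MERVL_2A-int repeat with 27 read pairs against 12.4, had 24 fragments that also read as Snora16a. Most fragments behind these 3 calls thus cannot be told apart from snoRNA by sequence.

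Up to 5 mRNAs with most read pairs were named for each snoRNA, whether called or not. Of these, Fam171a1, Cntn5 and Aldoart2 were called in ES merged and the rest were not. Over all mRNA partners, ES merged called 122 of 1324 for Snora24, 98 of 914 for Snora68 and 82 of 888 for Snora17. It called 36 of 363 for SNORA71 and 73 of 532 for SNORA14. The 6.34% called in the table is of pairs of all RNA types, and a share for mRNA pairs was not worked out. Among pairs of any type with at least 3 read pairs, 28.8% of those of the 5 were called, beside 39.3%. Dnahc7b, a dynein heavy chain gene, had 120 read pairs with Snora24 against 188 predicted, 58 with Snora68 against 119 and 46 with SNORA14 against 57.7, in an intron and largely antisense. Rpl3, which encodes a protein of the large ribosomal subunit, had 34 with Snora24 against 58.8. These counts below the prediction likewise cannot be read as a depletion. Snrpb, which encodes a core spliceosomal protein, had 13 with Snora17 against 6.75 (Fisher's exact test, adjusted p = 0.0633) and 11 with Snora68 against 7.29 (adjusted p = 0.223). Each of these counts came from 4 sets of coordinates. Eef2, the translation elongation factor, had 10 with Snora17 against 7.74 (Fisher's exact test, adjusted p = 0.386), from 4 sets of coordinates. Nufip2 had 22 with Snora24 (3 and 19 in the 2 ES libraries) against 18.8 (Fisher's exact test, adjusted p = 0.397) and was called in ES-2 alone. Aldoart2, an aldolase gene, had 10 with SNORA71 (8 and 2) against 0.241 (Fisher's exact test, adjusted p = 1.13e-11). It was called in ES-1 and not in ES-2, and its 10 read pairs had 2 sets of coordinates.

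The proteins of the H/ACA complex were looked at as transcripts. Dkc1, Nop10, Nhp2, Gar1, Naf1 and Shq1, which encode dyskerin, its 3 partner proteins and 2 assembly factors, had 0 read pairs with any of the 5 snoRNAs among 24700 read pairs with another RNA in ES merged, which allows a share of up to 0.0121%. These genes had 5 (Gar1) to 62 (Shq1) fragment ends in ES merged, so few contacts could have been seen at this depth. Some host genes were met next to the snoRNA, at under 2000 bp: Snhg7 had 23 read pairs with Snora17 in ES-1, 2 in ES-2 and 25 in ES indirect, 9430008C03Rik had 11 with SNORA71 in ES-1, and Tomm20 had 7 with SNORA14 in ES indirect. Snora43, a neighbour of Snora17 in Snhg7, had 43 with it in ES-1 and 3 in ES-2. Read pairs so close together can come from one precursor and were kept out of the test of partners.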

How the data were processed

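Lines of the deposited files, each 1 read pair with coordinates, strand, sequence, type and name of RNA1 and RNA2, were analysed as read pair counts. According to the methods, the authors removed duplicates by coordinates and random barcode, split reads at the linker and mapped both fragments to mm9 (TopHat2 2.1.1 is named in the submitters' processing notes, its role is not stated). Self-ligated lines had the same member name in both name columns. The true strand of RNA2 was taken as the opposite of that written. Genes were taken from GENCODE vM1, sequences from NCBIM37, folds from ViennaRNA 2.7.2 (minimum free energy), tests from scipy 1.17.1. The libraries used held 474526 to 3302146 read pairs. Libraries were compared by two-sided Fisher's exact tests, adjusted by Benjamini-Hochberg over the 7 tests of a measure. Boxes were found by sequence, with a window of 5 nt. Partners named were, for each snoRNA, rRNA, up to 5 mRNAs found in each ES library that led by read pairs, up to 3 others called in both, host genes and genes of H/ACA proteins. Not each of these is reported here. Ribosomal, unannotated, same-name and near (under 2000 bp) pairs were left out of the partner test. The test was checked on simulated data. The rRNA bins and the view of MEF by flow cell were added after seeing the data. The tests of RNA2 starts and of both termini together were not in the plan. Neither these tests nor those of RNA2 ends at a box were repeated with identical coordinates counted once. Nor was the window from 11 to 16, which covers positions that lead among the RNA2 ends of several of the snoRNAs. The snoRNAs and the lists were chosen with earlier results of these data known. Alternatives were collapsed coordinates, matched sequence, 20-nt fragments, leave-one-out, other windows and thresholds.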

Additional observations from a re-analysis of the deposited data

How the results depend on the processing

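Values here are totals over the 5 snoRNAs in ES-1 and ES-2 together unless a snoRNA or library is named. For single snoRNAs, differences between libraries and rRNA bins, 196 values stayed as they were, 85 moved, 6 came to pass a test, 5 no longer passed and 2 turned. A share stayed when it kept within the spread of the ES libraries or, in MEF, within its interval. A count of partners stayed within a factor of 1.5, and a test stayed on its side of the threshold. Of the 196, 17 took the H box by the fold, which gave the same box, so they could not move. Another 30 were ES-1 alone, which makes up most of the total, so they had little room to move. No paired analysis was possible because ES-1 and ES-2 are replicates of 1 group and ES indirect and MEF have 1 library each, which leaves fewer than 2 shared replicate numbers between groups. Leaving out 1 ES library in turn gave a self-ligated share of 5.27% to 8.95% (8.46% with both), a reversed share of 91% to 92.3% (92.2%), RNA1 ends at a box of 77.3% to 81.2% (80.9%), RNA2 ends at a box of 0.185% to 0.633% (0.597%), unpaired ends of 81.4% to 82.8% with terminal ends included (82.7%) and 46 to 533 partners called (515). The lowest share and the 46 partners are those of ES-2 alone; for SNORA71 the self-ligated share was 4.3% in ES-2 and 16.1% with both. With identical coordinates counted once, the self-ligated share was 5.04%, the reversed share 89.4%, RNA1 ends at a box 73.8% and partners called 57. With ribosomal read pairs out of the denominator the self-ligated share was 18.6%. With RNA2 at least 10 nt upstream the reversed share was 89.5%. A window of 3 nt gave RNA1 ends of 5.52% and RNA2 ends of 0.0597%, and 10 nt gave 86.5% and 1.73%; the deposited RNA1 end lies 4 nt after the ACA box by its linker base, which the narrow window leaves out by construction. With that window 2 differences turned, Snora24 in ES-1 against ES indirect (Fisher's exact test, adjusted p = 0.681) and in ES-2 against MEF (adjusted p = 0.412). The centroid structure gave 91.2% unpaired ends, and a minimum of 5 read pairs 234 partners. The 2 alternatives for MEF without 1 flow cell and for the rRNA bins were chosen after seeing the data. The drop of partners from 515 to 57 and to 46 in ES-2 alone was not tested for its cause, and ES-2 with 556 self-ligated read pairs limits each comparison of the ES libraries.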
